A study of Mus musculus with 21 samples.

Results

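The 3′CBEs, a cluster of CTCF-binding elements, were deleted in CH12F3 cells that already carried 3 inserted CTCF-binding elements, and the joins of broken Sμ ends were read before and after. The groups compared were set by genotype, with earlier results of these data known. It sets the 3 libraries labelled i3CBEc-3'CBEs-delta (here i3CBEc-3CBEdel, or the deletion libraries) against the 3 labelled i3CBEc, 6 of the 21 libraries of the series. They hold 9170 of its 40530 junctions, 1 junction being 1 line of the authors' tables. CH12F3 is a B-cell lymphoma line of the mouse that can switch to IgA in culture. In all 6 libraries the cells had been given anti-CD40 together with IL4 and TGF-β, for 72 h. Both genotypes were built in a line in which Sμ to Sα is deleted on the non-coding IgH allele. Both groups also share the inserted elements, whose orientation is labelled convergent with the 3′CBEs. The labels name no clone and do not say whether libraries of a group came from separate cultures. The p-values therefore measure only the spread between libraries. In the permutation tests these are the 6 compared, and in the limma fits across bins, unless stated, all 21. A further group, NCdel, is the line with neither the insertion nor the 3′CBE deletion (6 libraries, 11564 junctions) and is given as background.

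Class switching joins a break in the Sμ switch region to a break in the switch region of a downstream constant gene, both made by the deaminase AID, and the DNA between them is lost. CTCF bound to its elements can halt cohesin as it extrudes a chromatin loop, and convergent elements tend to become loop anchors. The 3′CBEs are such a cluster at the far end of the IgH locus, beyond the last constant gene Cα and the 3′ enhancers, and are regarded as the downstream boundary of the locus. Removing them while an added cluster sits within the constant genes asks whether the joins of Sμ ends change inside the locus or extend past its end.

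The assay, CSR-HTGTS-seq, reads outward from a fixed DNA end, the bait, into the joined sequence, the prey. It started at the upstream edge of Sμ (mm9 chr12:114664780-114664913). A deletional join keeps the prey in the orientation that normal switching gives, and an inversional join has it flipped. The i3CBEc libraries held 1391, 1257 and 1180 junctions, and deletion libraries 1, 2 and 3 held 1591, 1978 and 1773. The i3CBEc libraries share sequencing run 389, and deletion libraries 1 to 3 come from runs 412, 426 and 438, which means that genotype cannot be told apart from run, and within the deletion group each library is also its own run. Median prey length was 86 to 100 bases in i3CBEc and 128, 66 and 144 bases in deletion libraries 1 to 3. The part of run and read length in the differences below was not tested.

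Split reads showed a deletion downstream of α. In deletion library 3, 3 reads crossed from one downstream position to another 9299 bases further on, without the sequence between. They are printed because they fix the ends of the lost segment in the cells of that library. The read runs on the minus strand, the coding strand of the constant genes. In the first line, lower case is chr12:114463297-114463326, on the α side, and capitals are chr12:114453968-114453997, on the far side. The second line is a read of deletion library 1 at the same α-side end (chr12:114463240-114463299), with the bases of the segment in capitals. The third line is a read of deletion library 2 that starts at the far-side end (chr12:114453942-114453996), with 1 base more than these positions because its alignment holds an inserted base.
fused read, deletion library 3: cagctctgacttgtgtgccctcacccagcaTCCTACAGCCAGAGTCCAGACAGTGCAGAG
prey at the α-side end, deletion library 1: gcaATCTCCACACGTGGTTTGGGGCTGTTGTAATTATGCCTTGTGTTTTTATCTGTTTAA
prey at the far-side end, deletion library 2: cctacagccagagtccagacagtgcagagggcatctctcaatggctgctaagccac

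The fusion removes chr12:114453998-114463296. Its 30 central bases were in 3 reads of deletion library 3 and in no read of the other 20 libraries. Reads that reach this point are few, since no other library had a read with either flank of 15 bases in full at the fusion. The reads of deletion library 3 thus show a deletion downstream of α. The labels of libraries 1 and 2 could not be checked by a fused read. That the lost segment held the 3′CBEs was not tested, as the labels give no position for them.

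Deletion library 1 held a read that does not match the fused sequence. Its prey joined the bait at 114463299, 2 bases on the α side of the fused end, with 4 bases of microhomology, and ran 140 bases into the segment. Whether this read came from the productive allele, the other allele or cells without the deletion was not tested, as the tables do not tell alleles apart. Each of i3CBEc libraries 1 and 2 had 1 prey inside the segment, at 114461336 and 114461065. Deletion libraries 2 and 3 had none. For library 3 the fused reads already show the loss. For library 2, which had no fused read, counts this low do not separate a lost segment from one that is rarely joined. In deletion library 2, 1 bait end was joined at 114453996, 1 base from the far-side end, with 1 inserted base.

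Downstream of α, the deletion libraries held more joins than i3CBEc, and by very different amounts. The region runs from the end of the α unit (chr12:114491999) to 250 kb from the bait (chr12:114414913), on the side of α where the 3′CBEs lie. In i3CBEc it took 7, 8 and 1 junctions, which are 0.503%, 0.636% and 0.0847% of all junctions. In the deletion libraries it took 11 (0.691%, 95% Wilson interval 0.386 to 1.23), 56 (2.83%, 2.19 to 3.66) and 251 (14.2%, 12.6 to 15.9). Library 3 was the highest by far, library 2 lay between, and library 1 was close above the top i3CBEc library, within its counting interval. The groups did not overlap. The mean difference of 5.48 percentage points had an exact permutation p of 0.1 (two-sided, adjusted over 10 regions 0.5), the smallest p that 3 against 3 libraries allow. It was 1.35 points without deletion library 3, and 8.09 without library 1. As a share of window junctions the groups overlapped, with 0.808%, 0.993% and 0.144% against 0.854%, 4.96% and 16.04% (exact permutation p = 0.2). In that measure library 1 lay below i3CBEc library 2. NCdel was at 0.242% ± 0.189 (SD, n = 6).

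**Figure D1:**
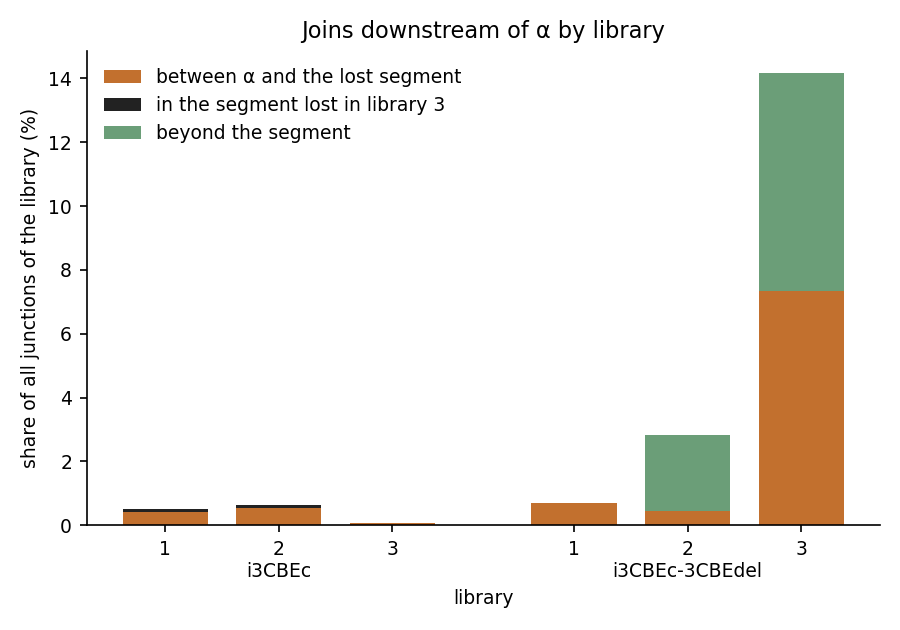
Share of all junctions downstream of α in each library (y axis, percent), divided at the ends of the segment lost in deletion library 3. Joins beyond the segment appear in deletion libraries 2 (2.38%) and 3 (6.82%) and in none of the other 4 libraries.

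The fused ends divide the region into an α side, the segment itself and a far side. This division was made after the reads had been seen, so its values are given without a test. On the far side, the 3 i3CBEc libraries and deletion library 1 held 0 junctions. For a count of 0, the limit used here is 3 junctions over the total, not a Wilson limit. It allows a share of up to 0.189% in deletion library 1, and up to 0.216%, 0.239% and 0.254% in the i3CBEc libraries. The upper Wilson limits were 0.241% and 0.275%, 0.305% and 0.324%, in the same order. Deletion library 2 held 47 (2.38%, 1.79 to 3.15) and deletion library 3 held 121 (6.82%, 5.74 to 8.09). The 18 libraries outside the deletion group held 0 of 35188 junctions there, which allows up to 0.00853%. Intervals and limits cover counting error only, as the reads carry no stated molecular identifiers.

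On the α side, i3CBEc held 6, 7 and 1 junctions (0.431%, 0.557% and 0.0847%). Deletion libraries 1 and 2 held 11 and 9 (0.691% and 0.455%), in the range of i3CBEc or close above it. Deletion library 3 held 130 (7.33%, 6.21 to 8.64). Of its junctions on both sides together, 48.2% (42.1 to 54.4) lay on the far side, against 83.9% (72.2 to 91.3) in library 2. Both libraries thus had joins past the segment lost in library 3. Of the 3 deletion libraries only library 3 stood above the others on the α side.

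**Figure D2:**
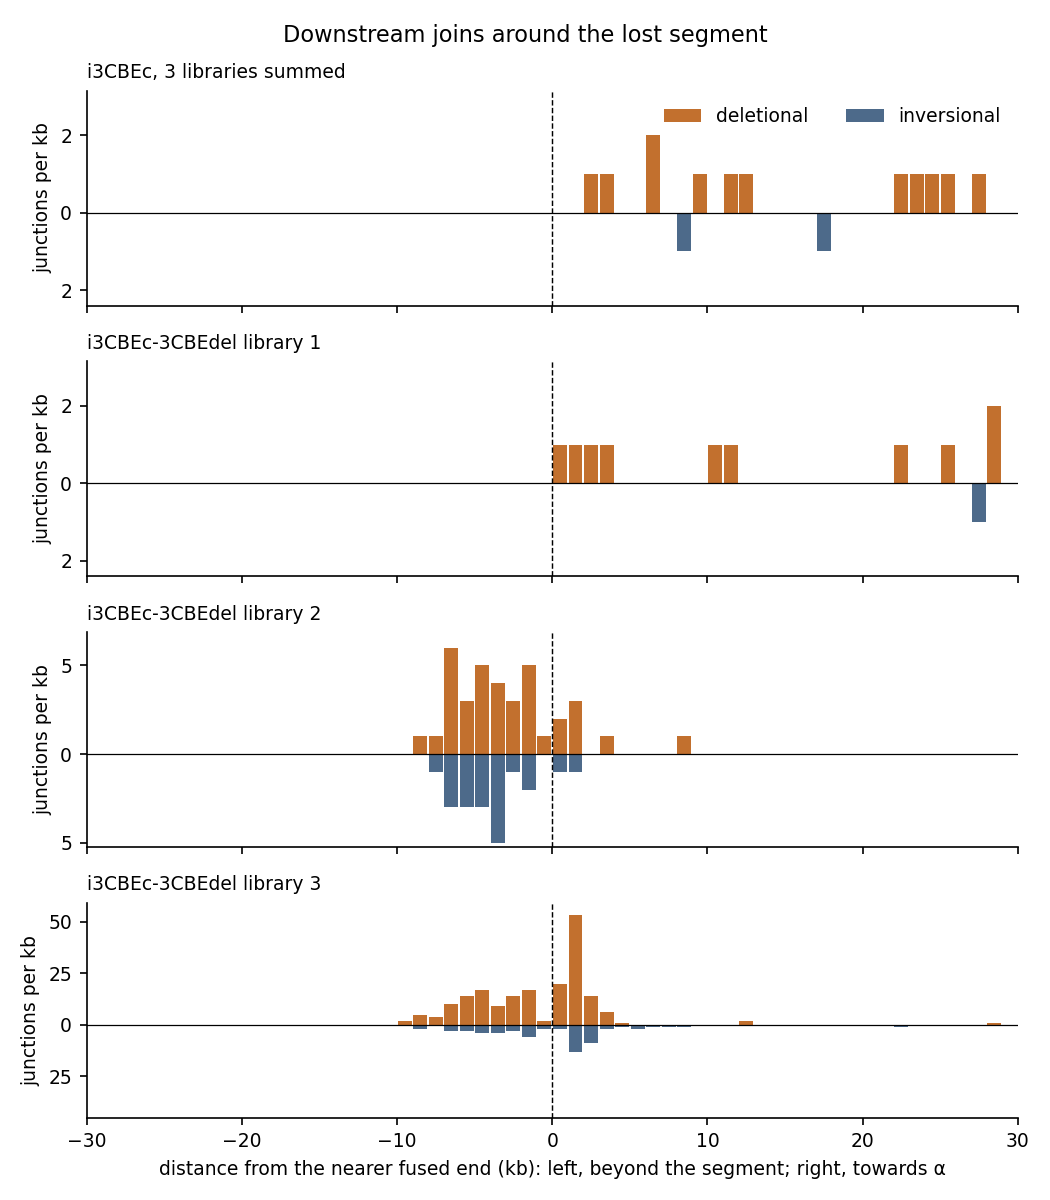
Junctions per kb by distance from the nearer fused end (x axis, kb, negative beyond the segment), with deletional joins above and inversional joins below the zero line and a separate y scale in each panel. In deletion libraries 2 and 3 the far-side joins end within 10 kb of the far-side end fused in library 3. Deletion library 3 has its highest bar just on the α side of the fusion.

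Joins of deletion libraries 2 and 3 gathered around the ends fused in library 3. In library 2 no read showed the fusion, and distances are taken from the same positions. Far-side distances from the fused end were 1 to 8668 bases in library 2 (median 4505) and 141 to 9849 bases in library 3 (median 4243). Beyond that, the next junction on chromosome 12 lay 284 kb from the fused end in library 2 and 170 kb from it in library 3. In the other 4 libraries the nearest junction past the far-side end was 349 to 628 kb away. On the α side, 9 of 9 junctions of library 2 and 126 of 130 (96.9%) of library 3 lay within 10 kb of the fused end. In i3CBEc 4 of 6, 1 of 7 and 1 of 1 did so, and in deletion library 1 it was 4 of 11. Positions were mostly used once. The 47 far-side junctions of library 2 had 47 distinct positions, and the 121 of library 3 had 118. The 7 positions with more than 1 junction were all in library 3 and held 2 each. At 5 of them (114445568, 114447395, 114452753, 114464268 and 114467040) both joins had the same orientation, and at 114464876 and 114464997 they had opposite ones.

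The most used stretch on the α side also carries AGCT, the palindrome that AID targets in switch regions and that reads the same on both strands. The kilobase at 114464000 to 114464999 met the density used here to place switch blocks. A block also needs at least 1000 bases read, and the deletion group held 76 of the 77 junctions there. Its heavy use in that group thus helped this kilobase to be placed as a block. Its consensus, built from the prey reads, had 1.00 AGCT per 100 bases, against 2.32 in Sα and 6.43 in Sμ. In the bases that the reads cover, the whole α side, this kilobase included, had 0.489, and the far side 0.316. The lost segment had 1.07, over only 563 covered bases. Counted per 100 bases read, the kilobase at 114464000 had 1.15, on 10983 bases read. Deletion library 3 held 69 of the 77 junctions there over all libraries. Among the single kilobases of the α side, 114470000 (1.26 per 100 bases read) and 114472000 (1.40) were denser. They had 717 and 214 bases read, under the minimum of 1000. The 300-base windows with the most deletion-group junctions in the kilobase at 114464000 and on the far side are printed, minus strand, AGCT in capitals. The first was searched only in the kilobase already picked for its AGCT. The second falls in the far-side kilobase 114452000, with 0.0604 AGCT per 100 bases read. The far-side kilobases 114447000 to 114451000 had 0.240 to 0.546. The windows therefore do not stand for their sides in AGCT. The first is chr12:114464214-114464513, the second chr12:114452623-114452922.
α side: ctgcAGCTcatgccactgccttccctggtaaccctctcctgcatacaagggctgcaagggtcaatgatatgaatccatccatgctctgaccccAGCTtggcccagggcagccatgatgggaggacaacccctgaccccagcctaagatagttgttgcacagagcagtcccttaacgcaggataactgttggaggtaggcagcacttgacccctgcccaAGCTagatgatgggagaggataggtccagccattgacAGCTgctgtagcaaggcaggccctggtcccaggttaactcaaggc
far side: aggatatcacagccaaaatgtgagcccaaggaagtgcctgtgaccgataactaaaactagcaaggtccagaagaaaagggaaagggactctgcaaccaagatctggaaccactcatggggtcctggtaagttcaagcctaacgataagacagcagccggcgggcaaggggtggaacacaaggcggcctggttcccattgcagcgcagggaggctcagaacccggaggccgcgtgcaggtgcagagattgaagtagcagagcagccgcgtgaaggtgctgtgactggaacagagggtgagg

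The first window holds 4 AGCT and took 3 junctions of deletion library 2 and 29 of library 3. The second holds 0 AGCT and took 4 and 14. The i3CBEc libraries and deletion library 1 had 0 in both. Among 32851 mouse RefSeq promoters of 300 bases (GRCm38), 8.08% hold 4 or more AGCT and 22.4% hold none. These matches describe the windows and say nothing of AID.

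The first junction reads of that kilobase, in order of position, show what such a join looks like in each deletion library. The bait end comes first, and capitals mark a base shared by bait and prey or inserted between them. The prey positions are 114464947, 114464069 and 114464135, and all 3 joins are deletional.
deletion library 1: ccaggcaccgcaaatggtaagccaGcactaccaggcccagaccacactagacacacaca
deletion library 2: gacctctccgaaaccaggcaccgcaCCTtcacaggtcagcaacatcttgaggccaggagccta
deletion library 3: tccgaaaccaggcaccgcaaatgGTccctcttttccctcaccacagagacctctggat
Library 1 joined through 1 shared base, library 2 with 3 inserted bases and library 3 through 2 shared bases.

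Across the window around the bait, which reaches 20 kb upstream and 250 kb downstream, joins were counted in 1-kb bins and compared with limma on log2(junctions per 10000 + 1), with the spread estimated over all 21 libraries. Of 60 bins tested, 13 were called at an adjusted p under 0.05 (21.7%), 11 higher (18.3%) and 2 lower (3.33%) in the deletion group. Of the 10 downstream bins tested, 8 were higher, with a median log2 fold change of 3.92 over the 10, against 0.03 over all 60. All 8 passed the filter of 10 junctions only through the deletion group, so that their direction was largely fixed. With only the 6 libraries in the fit, 0 of 28 bins were called (2 at an unadjusted p under 0.05), and without deletion library 3 only 1 of the downstream bins could be tested and it was not called. The 8 calls are therefore a description of where the deletion group's joins lay, not support for a difference between genotypes.

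The bin at 114464000 had 0, 0 and 0 junctions in i3CBEc and 1, 6 and 69 in the deletion libraries. Its log2 fold change was 5.48, with an SE of 0.94 from the fit of all 21 libraries. In the separate fit on the 6 libraries its limma adjusted p was 0.253. The next bin, 114465000, had 0 in i3CBEc and 1, 1 and 31. Its log2 fold change was 4.31 (SE 0.96 from the fit of all 21 libraries). In the fit on the 6 libraries its limma adjusted p was also 0.253. In both bins library 3 alone supplied most of the junctions. In the 6 far-side bins from 114447000 to 114452000, i3CBEc and deletion library 1 were at 0, library 2 held 4 to 9 per bin and library 3 held 13 to 23. Their log2 fold changes were 3.92, 3.86, 4.09, 3.92, 3.67 and 4.07 in order of position. As i3CBEc is at 0 in all 8, these values depend on the pseudocount.

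The 5 other called bins rest on few junctions. In ε the bin at 114515000 held 0 junctions in each i3CBEc library and 1, 3 and 1 in the deletion libraries (log2 fold change 3.20). In the stretch of the insertion the bin at 114519000 held 0 in i3CBEc and 5, 0 and 2 (2.88). Also in the stretch, 114522000 held 2, 1 and 1 against 0, 0 and 3 (-2.06), and 114526000 held 2, 0 and 1 against 0, 0 and 0 (-2.40). In μ, 114661000 held 0, 0 and 2 against 2, 2 and 8 (2.87). Those at 114522000, 114526000 and 114661000 lost their calls without single libraries of either group, and 114519000 lost its call without deletion library 3.

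Further out, 50-kb bins were tested from the end of the α unit to 5 Mb beyond it. Only 2 had enough junctions, and 1 was called (50%). The called bin is the one next to α, with 7, 8 and 1 junctions against 11, 56 and 251 (log2 fold change 3.27, SE 1.04, limma adjusted p 0.00703). The SE was the same in both bins, as limma pooled the spread over these 2 bins and all 21 libraries. It is therefore not the spread of this bin in the 6 libraries compared. With the replicate block in only those 6 libraries, the bin was not called. The call in all 21 libraries was also lost without i3CBEc library 3 and without deletion library 3. The bin at 113792000 held 1, 1 and 1 against 1, 1 and 6 (log2 fold change 0.38, limma adjusted p 0.715). In the 5 Mb beyond the window altogether, i3CBEc held 4, 6 and 6 junctions and the deletion libraries 2, 7 and 8. These counts overlapped between the groups.

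Joins to α, the IgA acceptor, were more frequent than to any other unit of the locus in all 6 libraries. The α unit (chr12:114492000-114507499) took 40.04%, 39.6% and 38.0% in i3CBEc and 52.3%, 29.0% and 48.3% in the deletion libraries. Libraries 1 and 3 were above all of i3CBEc and library 2 below, so the groups overlapped, with means of 39.2% ± 1.10 and 43.2% ± 12.5 (SD, n = 3 each, exact permutation p = 0.7). Joins to other chromosomes took 35.5%, 32.7% and 38.2% in i3CBEc and 16.9%, 39.0% and 8.91% in the deletion libraries. Among the deletion libraries, only library 2 had more of these than of α joins, as i3CBEc library 3 also did. The part of these joins in the α shares was not tested. Counted over window junctions alone, the mean α difference was -6.82 percentage points in place of 3.99, so no direction of the α share is given.

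**Figure D3:**
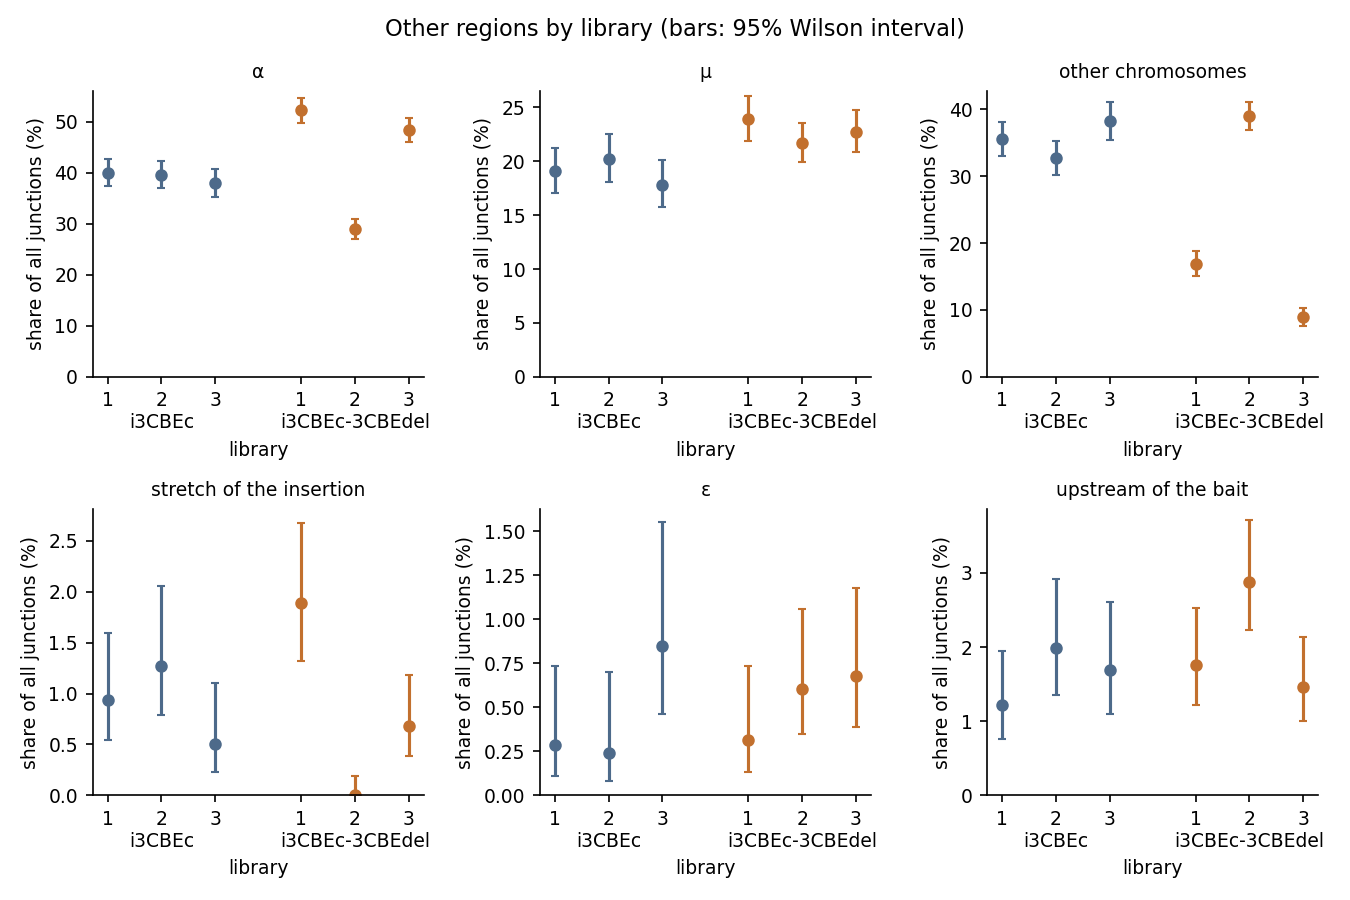
Share of all junctions (y axis, percent, from 0) in 6 regions for each library, with 95% Wilson intervals. Deletion libraries 1 and 3 lie above i3CBEc in α and below it in joins to other chromosomes, and library 2 lies on the other side in both.

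Within the α unit, the joins of both groups peaked in the same place. The kilobase at 114500000 was the most used in every library, with 45.8%, 44.2% and 41.3% of α joins in i3CBEc and 40.1%, 37.7% and 35.9% in the deletion libraries. Deletion libraries were the lower ones here without overlap. Median positions were 114500846, 114500812 and 114500731 in i3CBEc and 114500375.5, 114500955 and 114500756 in the deletion libraries, which overlapped. Of the 10 α bins tested by limma, 0 were called.

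**Figure D4:**
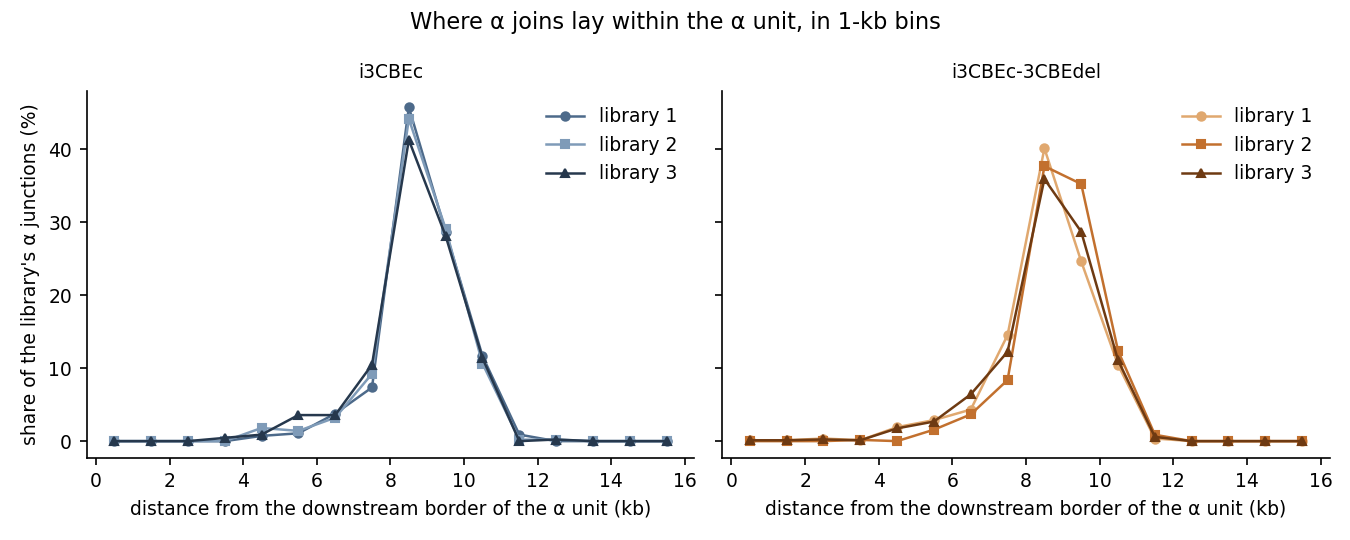
Share of each library's α junctions in 1-kb bins (y axis, percent) by distance from the downstream border of the α unit (x axis, kb). All 6 libraries peak in the same kilobase, at 35.9% to 45.8%.

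The μ unit (chr12:114632500-114664913), where bait ends rejoin within Sμ, took 19.1%, 20.2% and 17.8% in i3CBEc and 23.9%, 21.7% and 22.7% in the deletion libraries. All deletion libraries were above all i3CBEc libraries. The means were 19.0% ± 1.21 and 22.8% ± 1.10 (exact permutation p = 0.1, adjusted over 10 regions 0.5). The difference of 3.75 percentage points was 1.43 with the unit's borders moved 1 kb towards α. As a share of window junctions it was 0.307 and the separation was lost (exact permutation p = 1). Upstream of the bait the shares were 1.22%, 1.99% and 1.69% against 1.76%, 2.88% and 1.47%, which overlapped (exact permutation p = 0.5). With the borders moved 1 kb towards α, so that joins next to the bait counted as upstream, the difference went from 0.401 to 2.72 points (exact permutation p = 0.1).

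The insertion lies within a stretch between γ2a and ε (chr12:114517000-114527999), which took 13, 16 and 6 junctions in i3CBEc and 30, 0 and 12 in the deletion libraries. In percent these were 0.935, 1.27 and 0.508 against 1.89, 0 and 0.677. Deletion library 1 was the highest of the 6, and library 3 lay within i3CBEc. Library 2 held 0 of 1978, which allows up to 0.152% (3 junctions over the total). NCdel held 0 of 11564. Reads place the insertion site only within an interval, and towards α from it lay 7, 8 and 2 junctions of i3CBEc and 16 and 8 of deletion libraries 1 and 3. Towards μ from it lay 0, 0 and 0 against 2 and 0. The means, 0.905% ± 0.383 and 0.854% ± 0.955, were close (exact permutation p = 1), but the spread of the deletion libraries leaves this mean with little meaning.

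In ε, the next acceptor towards α, i3CBEc held 4, 3 and 10 junctions and the deletion libraries 5, 12 and 12, which overlapped (0.458% ± 0.338 and 0.533% ± 0.192, exact permutation p = 0.8). NCdel was at 0.0384% ± 0.0488. Deletion library 2, with no junction in the stretch, therefore had ε joins (0.607%) within the range of the other insertion libraries. The γ units upstream of the insertion were almost empty in both groups. In all 3 libraries together, γ3 held 1 junction in i3CBEc and 2 in the deletion group, γ1 0 and 3, γ2b 1 and 1, and γ2a 3 and 2. NCdel held 52, 18, 19 and 3 junctions in these units, in the same order, in 6 libraries.

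The orientation of α joins differed by less than the spread between libraries. Deletional joins made up 80.1%, 80.9% and 82.4% in i3CBEc and 81.4%, 79.4% and 80.2% in the deletion libraries, against 97.4% ± 0.837 in NCdel (SD, n = 6). The difference of the 2 insertion groups was -0.807 percentage points (exact permutation p = 0.5). Deletion library 2, which had no junction in the stretch, was thus also at the α orientation of the insertion libraries. In μ the deletional share was 82.3%, 79.9% and 81.0% against 82.1%, 70.9% and 79.4%, and library 2 was the low one.

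Upstream of the bait, the word deletional names the orientation of the prey only, not a loss of DNA between bait and prey. There, joins in that orientation were 13 of 17, 18 of 25 and 16 of 20 in i3CBEc. In the deletion libraries they were 21 of 28, 29 of 57 and 10 of 26. Libraries 2 and 3 were below all of i3CBEc and library 1 within it (exact permutation p = 0.2). On the far side of the fusion, 29 of 47 joins of library 2 and 94 of 121 of library 3 were deletional. On the α side of the fusion, library 3 had 97 of 130 (74.6%, 66.5 to 81.3). Both orientations occurred around the fusion in libraries 2 and 3, as they did in α.

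**Figure D5:**
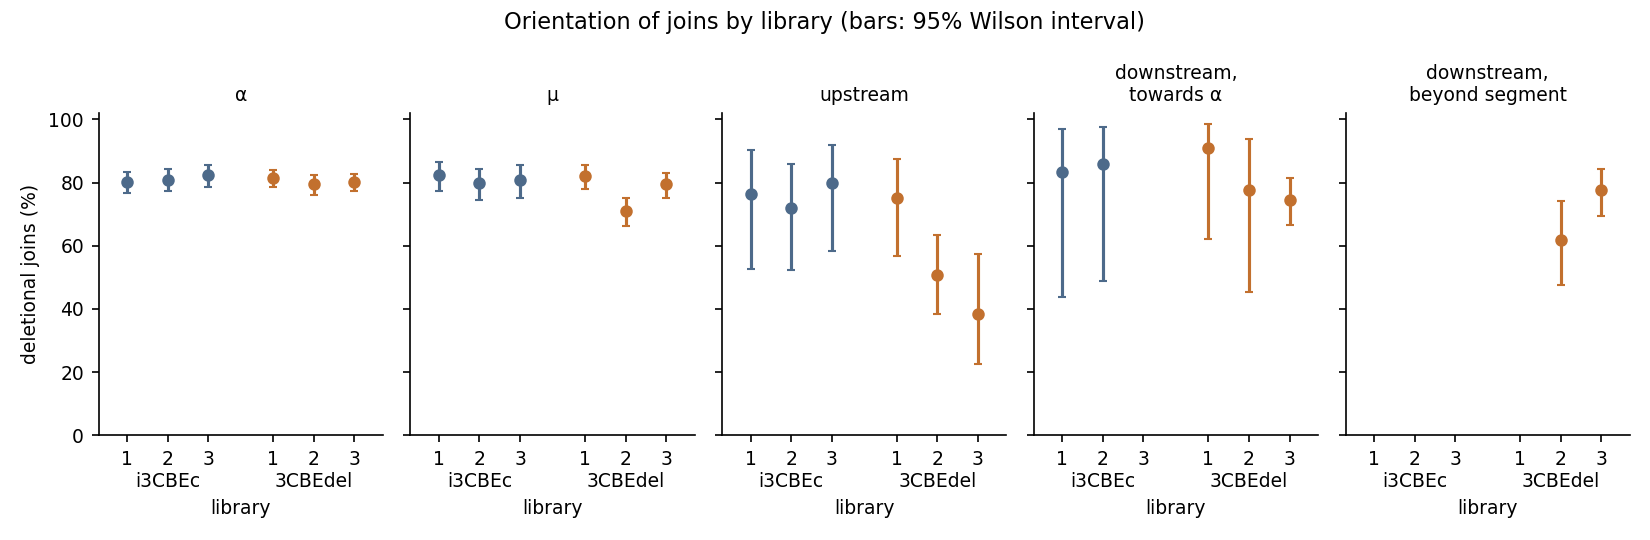
Deletional joins in percent (y axis) for each library in 5 regions, with 95% Wilson intervals, leaving out values on under 5 junctions. Upstream of the bait the word names the orientation only. In α all 6 libraries lie between 79.4% and 82.4%, and upstream of the bait deletion libraries 2 and 3 are the lowest.

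The structure of the joins was compared in α and μ, by the bases shared or inserted at the junction. Microhomology, a few bases shared by both ends, was present in 56.6%, 57.0% and 59.2% of α joins in i3CBEc and in 51.1%, 56.5% and 51.0% in the deletion libraries. The groups did not overlap, though library 2 came close to i3CBEc library 1 (57.6% ± 1.38 and 52.9% ± 3.18, exact permutation p = 0.1, adjusted over 8 measures 0.267). In μ the order was the other way, with 49.4%, 46.5% and 49.5% against 50%, 51.5% and 50.6%, also without overlap (adjusted exact permutation p = 0.267). The NCdel libraries ran from 44.5% to 59.1% in μ, which spans both groups, and from 53.4% to 59.3% in α. The mean length of microhomology in α was 2.38 ± 0.0223 and 2.33 ± 0.144 bases (exact permutation p = 0.7). In μ it was 2.60 ± 0.120 and 2.43 ± 0.0320 bases, shorter in all 3 deletion libraries (exact permutation p = 0.1, adjusted 0.267). In the far-side joins, 46.8% of 47 in library 2 and 62.8% of 121 in library 3 had microhomology, and 36.2% and 27.3% were direct. These have no counterpart in i3CBEc.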

How the data were processed

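The deposited tables hold 1 line per junction kept by the authors, with positions and lengths in bases and no normalisation. mm9 and Bowtie2, with no version, are named in the submitters' processing notes, and filter settings are not given in the sources used here. Members, regions and tests were chosen with earlier results of these data known. Reads found in more than 1 file were kept only in the smaller file (none in the 6 libraries compared). A shift of 99 bases on the μ side of the insertion was removed from all insertion libraries. Between the 2 groups, 13663 of 13940 matched words of 40 bases lay at the same position. Regions were set around blocks of at least 1 AGCT per 100 bases. Split reads had 40 or more bases left beyond the prey. Shares are percents of all junctions of a library, compared by two-sided exact permutation tests (20 splits) with Benjamini-Hochberg adjustment. Bins with 10 or more junctions over all libraries were fitted with limma 3.58.1 in all 21 libraries (5 groups). The fit was also run on simulated counts with a change shared by the whole deletion group. In these data 1 library supplied most of the downstream junctions, so that run does not bear on the calls. Named are all regions, every called bin, the 5 most used downstream positions of a library with any used 2 or more times, and the first junction reads by position. The alternatives were other denominators, borders, bins, filters, pseudocounts, collapsed repeats, the replicate block and leaving out each library.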

Additional observations from a re-analysis of the deposited data

How the results depend on the processing

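The downstream difference kept its sign under all 14 alternatives (1.35 to 8.09 percentage points over the 6 single libraries left out, 5.48 under the replicate block), and the design could not pass 0.05 in any. The groups overlapped in it as a share of window junctions, with or without 10 kb around the bait, per 100 μ junctions and with all borders moved 1 kb downstream (exact permutation p = 0.2 in each). The μ difference of 3.75 points was 0.307 as a share of window junctions and 1.43 with borders moved 1 kb towards α. Deviations from the group means had correlations of -0.08, -0.21 and 0.08 in same-numbered libraries and -0.19 to 0.24 in differently numbered ones. This gives no sign of pairing by number, but so few libraries cannot exclude it. The α difference of 3.99 points was -6.82 as a share of window junctions, -9.20 without 10 kb around the bait and -18.1 per 100 μ junctions, and -0.557 to 11.1 over libraries left out. The stretch difference was 0.139 with deletional joins only and -0.567 to 0.376 over libraries left out. That of ε was -0.0184 of window junctions, -0.121 per 100 μ junctions and -0.0349 to 0.269 over libraries left out. The upstream difference was 2.72 with borders moved 1 kb towards α, -0.177 with deletional joins only and -0.0221 to 0.685 over libraries left out. Over libraries left out, the chromosome 12 share centromeric of the window ranged from -0.314 to 0.486 points, mean α microhomology from -0.120 to 0.0244 bases, and direct joins in μ from -2.05 to 0.445 points. The 13 called window bins became 20 with no filter beyond 1 junction, 7 in bins of 2 kb, 5 in bins of 5 kb, 0 in only the 6 libraries compared, and 2 to 14 over libraries left out. With the replicate block in all 21 libraries 12 were called, of which 8 were downstream, and with the block in only the 6 libraries, added after the data were seen, 0 (3 at an unadjusted p under 0.05). For 50-kb bins the 1 call was 0 in that last fit and 0 to 1 over libraries left out. The cause was not tested. Depth limits every region under about 10 junctions per library, the γ units and the lost segment above all.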
